A study of Mus musculus with 14 samples.

Results

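The genes described here are 9 transcription factors that specify the oligodendrocyte lineage or drive its maturation and that lie outside the Sox family: Olig1, Olig2, Nkx2-2, Nkx6-1, Nkx6-2, Myrf, Zfp488, Zfp536 and St18. They were taken by gene symbol, not by their values, from the table of normalised counts, and all 9 of the 9 symbols were found among its 18355 genes. All 9 passed the filter on low values, a mean normalised count of at least 10 over all libraries. Nkx6-2 passed it through its O4 values alone, because its mean in the OPC libraries was under that minimum.

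The study asked how oligodendrocyte development depends on Mfsd2a, the transporter that brings lysolipids carrying omega-3 fatty acids into cells. RNA was sequenced from mouse brain cells at postnatal day 8 after magnetic sorting. OPC libraries came from cells held by CD140a (Pdgfra) microbeads, and O4 libraries from cells held by microbeads against O4, an antigen of immature oligodendrocytes. Each sort comprised 3 libraries of 2afl/fl mice, which carry the floxed Mfsd2a allele without Cre and served as controls, and 4 libraries of 2aOKO mice, which carry the same floxed allele together with a Pdgfra-cre transgene. The transgene uses the promoter of the gene whose product was the OPC sort antigen, so recombination is directed to cells that express Pdgfra, and progeny of those cells keep the recombined allele. The study gives its sample numbers as animals, and the labels give no sex or litter. These are bulk libraries, in which fewer cells of a type and less RNA per cell cannot be told apart.

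Oligodendrocytes arise from precursors that divide, leave the cell cycle and then wrap axons in myelin. The basic helix-loop-helix factors Olig1 and Olig2 act from the start of the lineage, with Olig2 needed for its specification. The homeodomain factors of the Nkx families pattern the ventral neural tube, where the first precursors form, and several return at later stages. Myrf is made as a membrane protein that cuts itself, and the released fragment enters the nucleus and binds myelin genes. Zfp488, Zfp536 and St18 are zinc finger proteins, of which Zfp488 is known as a partner of Olig2 in mouse oligodendrocytes.

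The deposited values are read counts divided by a size factor per library, here called normalised counts. They are not divided by gene length, so levels are compared between libraries and not between genes. The normalised totals ranged from 34120823 to 41030171 per library. From the steps between low values, 1 read was worth 0.772 to 1.19 normalised counts, so the counted reads came to an estimated 32953114 to 44187082 per library. On the first principal component, which held 48.7% of the variance, the 7 OPC libraries lay between -42.5 and -36.7 and 6 of the O4 libraries between 29.8 and 53.9, while library 2 of 2afl/fl O4 lay between these groups at 13.96. Mfsd2a averaged 10636 ± 4947 normalised counts (SD, n = 3) in 2afl/fl and 6188 ± 1688 (n = 4) in 2aOKO OPC libraries, and 9141 ± 3281 against 5962 ± 1585 in O4 libraries. Its transcript was thus still counted in 2aOKO, at 58.2% and 65.2% of the control means. The ranges did not overlap in OPC libraries, where the log2 difference was -0.74 ± 0.32 (SE, limma unadjusted p = 0.0357, adjusted p = 0.9999). Counts over the whole gene do not separate exons inside the floxed stretch from the others. A library numbered 3 was the highest of the controls and the lowest of the 2aOKO libraries in both sorts, at 16343 against 3665 in OPC and 12885 against 3615 in O4. The other OPC libraries read 7585 and 7979 in 2afl/fl and 7055, 7188 and 6843 in 2aOKO. The other O4 libraries read 6762 and 7777 in 2afl/fl and 7101, 6536 and 6596 in 2aOKO. The difference of the means thus rests largely on the libraries numbered 3.

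Upstream sequence is shown for 4 of the homeodomain and zinc finger genes, because Nkx6-1 and Nkx6-2 are close relatives with unlike patterns between the sorts, and Nkx2-2 and Zfp488 were both moderately higher in O4 libraries. Of the 9 genes, 6 had an entry in the RefSeq promoter table used here (build GRCm38.p6), namely Olig2, Nkx2-2, Nkx6-1, Nkx6-2, Zfp488 and Zfp536. Each sequence is the 250 bases before the annotated start, written 5′ to 3′ on the strand of the gene, which is the minus strand for all 4. The windows are chr7:139582798-139583047 for Nkx6-2, chr5:101664712-101664961 for Nkx6-1, chr2:147186403-147186652 for Nkx2-2 and chr14:33978765-33979014 for Zfp488. Capitals mark matches, on either strand, to the E-box CANNTG, to the SOX letters ACAAAG and ACAATG, to the NKX2 letters TNAAGTG, to the NKX6 letters TTAATTA or to the MYRF letters CTGGNAC.
Nkx6-2: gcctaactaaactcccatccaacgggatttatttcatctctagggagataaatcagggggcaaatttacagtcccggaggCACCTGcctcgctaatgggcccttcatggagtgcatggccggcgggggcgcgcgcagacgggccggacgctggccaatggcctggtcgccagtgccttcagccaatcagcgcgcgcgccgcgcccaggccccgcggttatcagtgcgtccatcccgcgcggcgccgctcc
Nkx6-1: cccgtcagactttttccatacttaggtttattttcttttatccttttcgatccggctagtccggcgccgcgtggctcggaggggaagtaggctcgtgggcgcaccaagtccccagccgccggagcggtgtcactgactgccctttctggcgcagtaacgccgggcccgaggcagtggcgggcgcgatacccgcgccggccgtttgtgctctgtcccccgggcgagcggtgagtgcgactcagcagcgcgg
Nkx2-2: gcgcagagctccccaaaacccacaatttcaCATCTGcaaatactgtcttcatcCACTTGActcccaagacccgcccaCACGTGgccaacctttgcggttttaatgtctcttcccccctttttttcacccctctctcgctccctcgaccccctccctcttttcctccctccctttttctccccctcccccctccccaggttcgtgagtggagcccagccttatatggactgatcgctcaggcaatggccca
Zfp488: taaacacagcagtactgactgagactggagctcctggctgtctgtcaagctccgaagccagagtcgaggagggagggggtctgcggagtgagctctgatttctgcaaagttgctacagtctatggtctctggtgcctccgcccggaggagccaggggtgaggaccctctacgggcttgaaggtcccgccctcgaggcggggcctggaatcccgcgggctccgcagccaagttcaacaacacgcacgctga

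The Nkx6-2 window held 1 E-box, 170 bases before the start, and the Nkx6-1 window none. Nkx2-2 had 3 E-boxes, 1 of which, 197 bases before the start, shares its bases with the only match to the NKX2 letters. None of the 6 searched strings occurred in the Zfp488 window. In the windows not shown, that of Olig2 held 1 ACAATG, 68 bases before the start, and that of Zfp536 held 2 overlapping matches to TTAATTA, 88 and 87 bases before the start. Of 32807 promoter windows of this length, 66.2% held an E-box, 16.5% ACAAAG, 10.7% ACAATG, 10.1% the NKX2 letters, 2.78% the NKX6 letters and 16.1% the MYRF letters. The Nkx6-2 and Nkx6-1 windows were alike in base composition, each with 65.2% G or C, against a median of 52.4% over all windows. A match of letters is a description of the sequence and not a binding site.

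The O4 and OPC sorts were compared first, within each genotype, to see which of these factors differ between the precursor and the immature oligodendrocyte. Each SE, interval and p-value of the limma fit rests on a spread estimated per gene over all 14 libraries, not only the groups named. Nkx2-2, Nkx6-2, Myrf, Zfp488 and St18 were higher in O4 libraries of both genotypes, and Olig1 was lower in both. In 2afl/fl, 6 of the 9 members passed the test, limma with an adjusted p under 0.05, of which 5 were higher and 1 was lower, while 26.5% of all 15565 genes tested passed, 14.3% higher and 12.2% lower. In 2aOKO, 6 of the 9 passed as well, again 5 higher and 1 lower, against 33.1% of all genes, 17.6% higher and 15.5% lower. The median log2 difference over the 9 members, O4 minus OPC, was 0.68 in 2afl/fl and 0.84 in 2aOKO, beside -0.01 and -0.02 over all genes tested. Because Nkx6-2 passed the filter on low values only where it was high, these counts and medians are a description. The values of the 2 sorts did not overlap for 7 of the 9 members in either genotype, 5 of them higher and 2 lower in O4. Over all genes tested this held for 34.1% in 2afl/fl, 17.6% higher and 16.5% lower, and for 40.5% in 2aOKO, 21.5% higher and 19% lower.

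**Figure D1:**
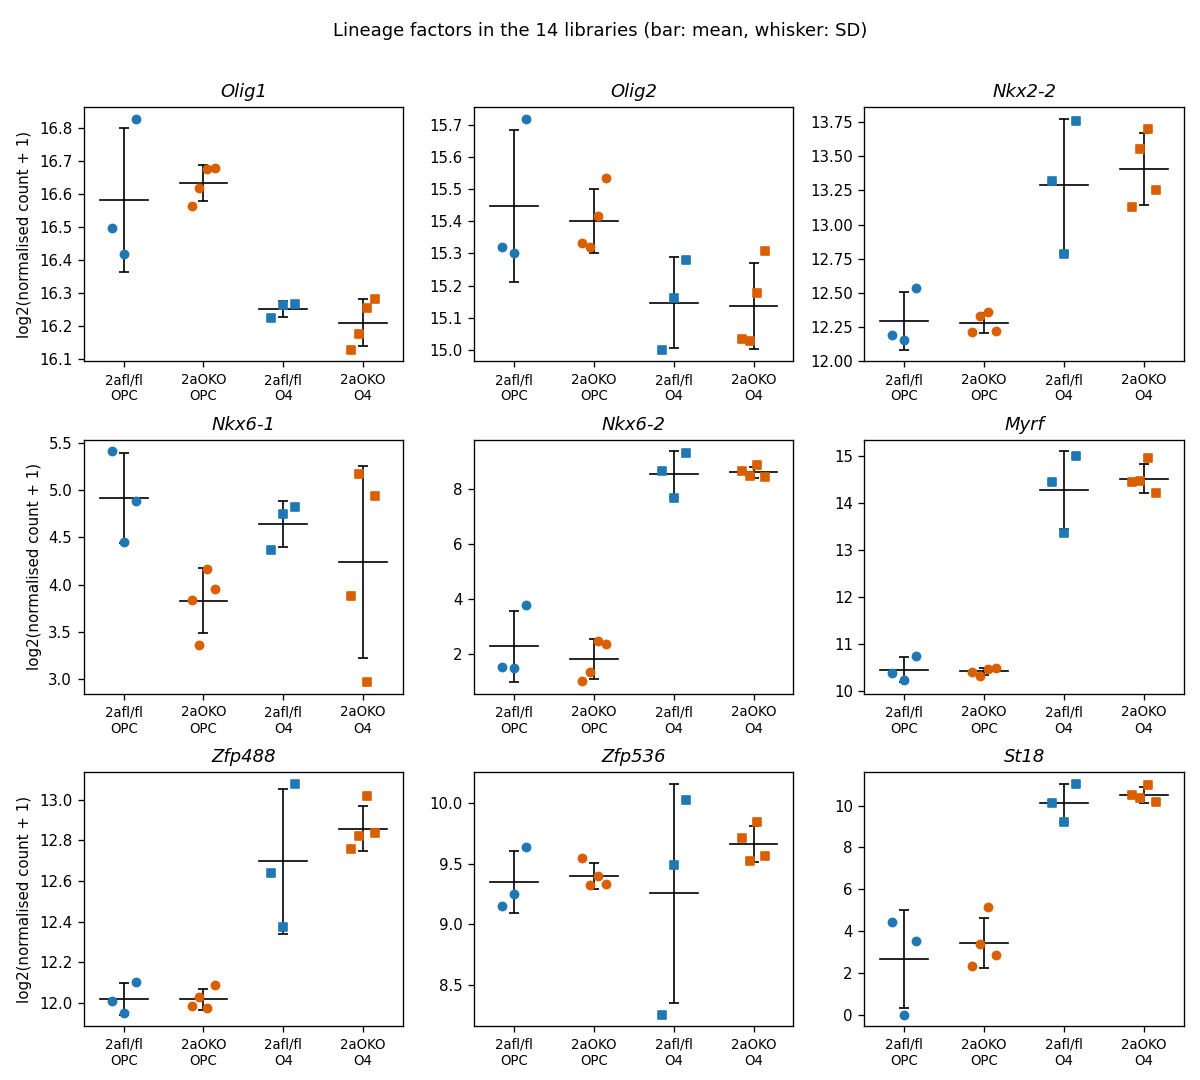
Each panel plots log2(normalised count + 1) of 1 gene in the 14 libraries, with circles for OPC and squares for O4 libraries, blue for 2afl/fl (n = 3 per sort) and orange for 2aOKO (n = 4 per sort), a horizontal bar at the group mean and a whisker of 1 SD. Each panel has its own axis, and within each genotype O4 points lie above OPC points for Nkx2-2, Nkx6-2, Myrf, Zfp488 and St18 and below them for Olig1 and Olig2.

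Olig1 (chr16:91066657-91068827, plus strand, mm39) and Olig2 (chr16:91022438-91025565, plus strand) are neighbours, with 41091 bases between them. Olig1, which in mice is needed for oligodendrocyte maturation and repair, was counted at 92491, 87483 and 116397 in 2afl/fl OPC libraries and at 76463, 78678 and 78869 in 2afl/fl O4 libraries. In 2aOKO it was at 96776, 100562, 104610 and 104870 in OPC and at 71566, 73928, 78232 and 79600 in O4 libraries. Every O4 library was thus below every OPC library. The O4 mean was 79.0% of the OPC mean in 2afl/fl and 74.6% in 2aOKO. The log2 difference was -0.33 ± 0.11 (SE, n = 3 against 3, limma adjusted p = 0.0454) in 2afl/fl and -0.42 ± 0.10 (n = 4 against 4, adjusted p = 0.00464) in 2aOKO. The 2afl/fl call was lost without library 3 of the OPC sort (-0.21, adjusted p = 0.195), without library 1 of the OPC sort (adjusted p = 0.0658), and without library 1 (0.105) or library 3 (0.0632) of the O4 sort. Fitted to the 2afl/fl libraries alone, the difference had a limma adjusted p of 0.281. The 2aOKO call was kept in all 16 alternative settings.

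Olig2, the factor that specifies the lineage, lay at 40919, 40355 and 53997 in 2afl/fl OPC and at 32746, 36633 and 39807 in 2afl/fl O4 libraries. The 2aOKO libraries read 41231, 40924, 43722 and 47541 for OPC and 33520, 33384, 37027 and 40542 for O4. No O4 value reached an OPC value of the same genotype, but the highest O4 and the lowest OPC values were close. The log2 difference was -0.30 ± 0.12 (limma adjusted p = 0.0882) in 2afl/fl and -0.27 ± 0.11 (adjusted p = 0.0720) in 2aOKO, neither of which passed. With the replicate number as a block within each genotype, which pairs the OPC and O4 libraries of 1 number, the same differences passed, with adjusted p = 0.0171 and 0.0126. The ratio of Olig1 to Olig2 normalised counts stayed between 1.96 and 2.46 over the 14 libraries.

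Among the homeodomain factors, Nkx2-2 (chr2:147019466-147028322, minus strand), which promotes the step from precursor to oligodendrocyte in mice, rose from OPC to O4. Its counts were 4672, 4569 and 5952 in 2afl/fl OPC and 10219, 7063 and 13836 in 2afl/fl O4 libraries. The 2aOKO values were 4741, 5144, 5255 and 4769 in OPC and 8950, 12010, 13299 and 9748 in O4 libraries. The lowest O4 library was above the highest OPC library in both genotypes. The ratio of the means was 2.05 in 2afl/fl (log2 difference 0.99 ± 0.20, limma adjusted p = 0.00297) and 2.21 in 2aOKO (1.13 ± 0.17, adjusted p = 0.000232). The antisense gene Nkx2-2os shares 2320 bases with this span, and the library kit is not stated to keep strand, so reads there cannot be told apart. Nkx2-2os was at group means of 62.1 to 82.8.

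Nkx6-2 (chr7:139159292-139162713, minus strand), a homeodomain factor known from myelinating oligodendrocytes and, in mice, from the order of the paranodal junction, was counted at a few reads per OPC library and far higher in O4 libraries. The OPC values were 1.89, 1.82 and 12.6 in 2afl/fl and 1.02, 1.55, 4.50 and 4.13 in 2aOKO, resting on an estimated 16 and 12 reads over the 3 and 4 libraries. The O4 values were 396, 201 and 632 in 2afl/fl and 393, 350, 468 and 346 in 2aOKO, from an estimated 1205 and 1416 reads. The groups were far apart, and the highest OPC value belonged to library 3 of 2afl/fl. The ratio of means was 75.1 in 2afl/fl and 139 in 2aOKO, with log2 differences on the log2(value + 1) scale of 6.27 ± 0.59 (limma adjusted p = 9.05e-06) and 6.80 ± 0.51 (adjusted p = 5.31e-07). The Nkx6-2 span shares 277 bases with Inpp5a on the other strand, which was at group means of 816 to 1014 and differed little between sorts (0.20 ± 0.10 in 2afl/fl, adjusted p = 0.152).

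Nkx6-1 (chr5:101807063-101812577, minus strand), which with Nkx6-2 patterns the ventral spinal cord, did not follow its relative. It was low in every library. In 2afl/fl it was at 41.6, 20.9 and 28.5 in OPC and 19.6, 25.8 and 27.3 in O4 libraries, and in 2aOKO at 13.3, 9.27, 17.0 and 14.5 in OPC and 13.7, 34.9, 6.82 and 29.7 in O4 libraries. These rest on an estimated 6 to 44 reads each, so counting error alone is large. The values of the sorts overlapped in both genotypes. The log2 difference, O4 minus OPC, was -0.27 ± 0.53 in 2afl/fl (95% interval -1.39 to 0.85, limma adjusted p = 0.751) and 0.41 ± 0.46 in 2aOKO (-0.56 to 1.38, adjusted p = 0.537).

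Myrf (chr19:10185635-10218112, minus strand), the membrane-bound activator of myelin genes, was counted in the OPC sort and was higher in the O4 sort. The 2afl/fl OPC libraries had 1337, 1197 and 1716 and the O4 libraries 22305, 10595 and 32870. In 2aOKO the OPC libraries had 1355, 1276, 1412 and 1440 and the O4 libraries 22394, 22699, 31690 and 18936. The OPC libraries lay within a narrow band and the O4 libraries spread 3.10-fold, with library 2 of 2afl/fl lowest and library 3 highest. The ratio of means was 15.5 in 2afl/fl (log2 difference 3.82 ± 0.29, limma adjusted p = 1.2e-06) and 17.5 in 2aOKO (4.10 ± 0.25, adjusted p = 1.03e-07).

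A list of 14 genes, made of known MYRF targets and the MYRF-binding membrane protein Tmem98, was read beside it. All 14 rose in both genotypes, against 14.3% of all genes tested in 2afl/fl and 17.6% in 2aOKO. Their median log2 difference was 4.14 in 2afl/fl and 4.13 in 2aOKO. Opalin, among them, was under the minimum in OPC libraries and passed the filter on low values through O4 alone, so the count and median are a description. Of the 14, 9 are also in the list of myelin markers used to check the sorts, so the lists overlap. Mobp, a basic protein of central myelin, differed by 10.41 ± 0.72 on the log2 scale in 2afl/fl (limma adjusted p = 6.27e-07). Mag, the myelin-associated glycoprotein, rose from 61.9 ± 25.5 to 34986 ± 16156 normalised counts (SD, n = 3 each), a log2 difference of 9.09 ± 0.45 (adjusted p = 2.8e-08). Mbp, the myelin basic protein, differed by 6.99 ± 0.38, Mog, a glycoprotein of the outer myelin surface, by 6.16 ± 0.46 and Cldn11, a tight junction protein of myelin, by 4.46 ± 0.31. Of the 14 log2 differences, which ran from 0.77 to 10.41 in 2afl/fl, 8 were above and 6 below that of Myrf itself, and in 2aOKO 7 were above and 7 below.

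Of the zinc finger genes, Zfp488 (chr14:33689027-33700721, minus strand) rose moderately. It was at 4114, 3952 and 4394 in 2afl/fl OPC and 6391, 5302 and 8661 in 2afl/fl O4 libraries, and at 4047, 4173, 4020 and 4351 in 2aOKO OPC and 6921, 7229, 8296 and 7319 in 2aOKO O4 libraries. The OPC values were nearly level across the 7 libraries and the O4 values all above them. The ratio of means was 1.63 in 2afl/fl (log2 difference 0.68 ± 0.13, limma adjusted p = 0.00244) and 1.79 in 2aOKO (0.84 ± 0.11, adjusted p = 9.11e-05). Fitted to the 2afl/fl libraries alone, the first of these had an adjusted p of 0.0534.

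St18 (chr1:6557455-6931164, plus strand), a zinc finger protein of the Myt1 family, was also far higher in O4 libraries. The OPC libraries read 20.8, 0 and 10.5 in 2afl/fl and 4.09, 9.27, 33.98 and 6.20 in 2aOKO. The O4 libraries read 1132, 598 and 2130 in 2afl/fl and 1440, 1334, 2063 and 1143 in 2aOKO. No OPC library came near an O4 library. The ratio of means was 123 in 2afl/fl and 112 in 2aOKO, and the fitted log2 differences were 7.49 ± 0.90 (limma adjusted p = 7.23e-05) and 7.09 ± 0.78 (adjusted p = 1.64e-05). The 2afl/fl value leans on library 2 of the OPC sort, which had 0 counts, and was 6.16 without it. Of the paralogs of the 9 members, Myt1, from the same family as St18, went the other way, from 14310 ± 1639 to 8552 ± 1938 normalised counts in 2afl/fl (log2 difference -0.76 ± 0.14, adjusted p = 0.00176) and by -0.81 ± 0.12 in 2aOKO (adjusted p = 0.000209). Myt1l and Nkx2-1 differed by -0.19 ± 0.21 and -0.44 ± 0.32 in 2afl/fl and did not pass. Of the other paralogs listed, Nkx2-4, Nkx2-9 and Myrfl were below the filter, and Olig3, Nkx2-3 and Nkx6-3 were absent from the normalised counts.

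Zfp536 (chr7:37178534-37469177, minus strand), a zinc finger protein known to hold back retinoic acid driven neuronal differentiation, gave no call between sorts. The OPC values were 568.1, 609 and 795 in 2afl/fl and 748, 639, 674 and 643 in 2aOKO. The O4 values were 305, 716 and 1039 in 2afl/fl and 838, 734, 918 and 758 in 2aOKO. The 3 O4 controls thus spanned everything else, and library 1 was the lowest of all 14 libraries, 1.86-fold under the next. That library was the lowest of the 14 by at least 1.5-fold for 1.83% of the genes tested, the highest share of any library. The log2 difference was -0.09 ± 0.30 in 2afl/fl (95% interval -0.73 to 0.55, limma adjusted p = 0.856) and 0.26 ± 0.26 in 2aOKO (-0.29 to 0.82, adjusted p = 0.482). Without library 1 of 2afl/fl O4 the first of these was 0.41 ± 0.17 (adjusted p = 0.118).

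**Figure D2:**
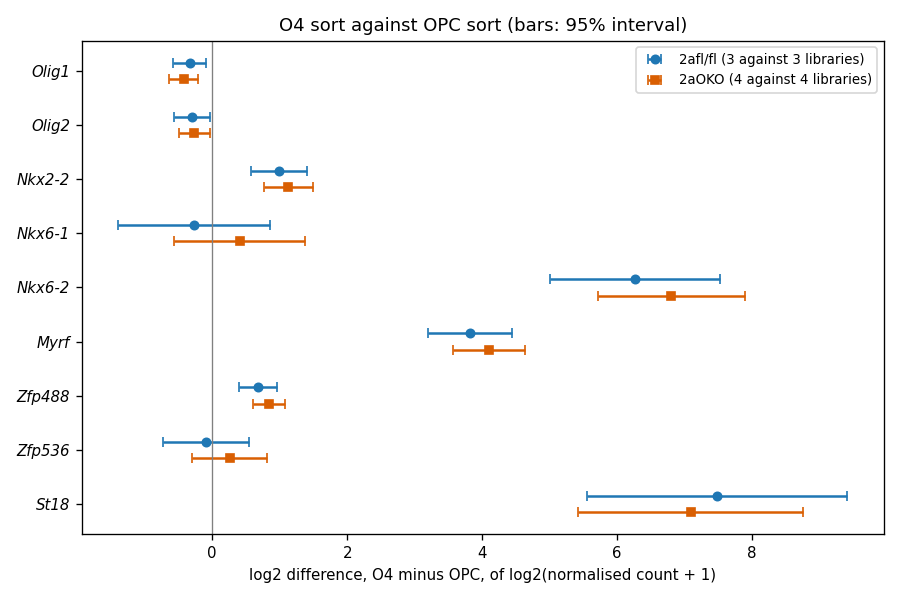
The horizontal axis is the log2 difference, O4 minus OPC, of log2(normalised count + 1), with points for the 9 genes in 2afl/fl (blue circles, 3 against 3 libraries) and 2aOKO (orange squares, 4 against 4), and bars for the 95% interval of the limma fit. St18, Nkx6-2 and Myrf lie far to the right, Nkx2-2 and Zfp488 just right of 0, Olig1 and Olig2 just left of 0, and the intervals of Nkx6-1 and Zfp536 cross 0.

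A wider list held 40 other regulators of the lineage, Sox factors and chromatin enzymes included. Of these, 6 rose and 9 fell in 2afl/fl, and 9 rose and 13 fell in 2aOKO. Among all genes tested, 14.3% rose and 12.2% fell in 2afl/fl, and 17.6% rose and 15.5% fell in 2aOKO. The median log2 differences of the 40 were -0.02 and -0.07. The 6 named here had the smallest p in 2afl/fl. Tcf7l2, a Wnt pathway effector needed for differentiation in mice, rose by 2.01 ± 0.21 in 2afl/fl (limma adjusted p = 2.46e-05). Zfp365, a zinc finger protein also known as a DISC1 partner, rose by 2.20 ± 0.25 and Tfeb, a factor for lysosomal genes, by 2.22 ± 0.29. Thra, a thyroid hormone receptor, rose by 1.07 ± 0.18 and Klf9, one of its known target genes, by 0.89 ± 0.15. Nfib, a nuclear factor I protein of early gliogenesis, differed by -0.64 ± 0.11 (adjusted p = 0.00116).

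Markers of the sorts and of other cells moved between the same groups. Among all genes tested, 14.3% rose and 12.2% fell in 2afl/fl, and 17.6% rose and 15.5% fell in 2aOKO. Of 11 OPC markers, 6 fell in 2afl/fl and 7 in 2aOKO. Pdgfra itself went from 270936 ± 37767 to 140948 ± 39368 normalised counts in 2afl/fl (log2 difference -0.97 ± 0.20, limma adjusted p = 0.00373), so precursor transcripts were still plentiful in the O4 libraries. Of 13 newly formed oligodendrocyte markers, 12 rose in each genotype, and of the 13 myelin markers tested 11 rose in each genotype and 1 fell in 2aOKO. In OPC libraries the myelin markers Klk6 (both genotypes) and Opalin (2aOKO) had no counts, and the summed myelin markers were 23036 to 25922 in 2afl/fl. Casr of the newly formed oligodendrocyte markers, Opalin of the myelin markers, and Neurod1, Neurod2 and Eomes of the excitatory neuron markers passed the filter through O4 libraries alone, so the counts of these lists are descriptions. Summed over 12 microglia markers, the level was 3216 to 5139 in 2afl/fl OPC and 7617 to 12245 in 2afl/fl O4 libraries, and 10 of the 12 rose (11 in 2aOKO). Summed over 10 fibroblast and pericyte markers, it was 73292 to 93249 in 2afl/fl OPC and 38453 to 55624 in 2afl/fl O4 libraries, and 7 of the 10 fell in each genotype. Of 12 astrocyte markers 5 rose and 1 fell in each genotype, of 11 interneuron progenitor markers tested 1 rose and 3 fell in 2afl/fl, of 10 excitatory neuron markers 2 rose and 1 fell, and of 10 endothelial markers none passed. No marker of the non-oligodendrocyte cell types was at 0 throughout a group. Their part in the differences of the 9 genes was not tested.

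The O4 libraries differed among themselves, and 3 of the factors followed the myelin genes from library to library. The sum of 14 myelin markers ranged from 372452 in library 2 to 1415826 in library 3 of 2afl/fl O4, a 3.80-fold spread, with the 4 2aOKO libraries between, from 577455 to 1091136. Nkx2-2, Nkx6-2, Myrf, Zfp488 and St18 were all lowest in that library 2 and highest in that library 3. Library 2 also had the highest sum of OPC markers of the O4 libraries, 657877 against 430929 to 615730 in the others, and the lowest sum of newly formed oligodendrocyte markers, 302624 against 500885 to 782133.

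Divided by the myelin sum of the same library, the highest value of Myrf was 1.41 times the lowest, where the undivided values spread 3.10-fold. For Nkx6-2 the spread went from 3.14-fold to 1.41-fold and for St18 from 3.56-fold to 1.63-fold. For Nkx2-2 the division made little difference, with 1.96-fold before and 1.94-fold after. For Zfp488 the spread widened from 1.63-fold to 2.33-fold, and for Olig1 and Olig2 it widened from 1.11-fold and 1.24-fold to 3.79-fold and 3.50-fold. So Myrf, Nkx6-2 and St18 varied in near proportion to myelin transcripts in these 7 libraries, Zfp488 and Nkx2-2 over a narrower range than the myelin sum, and Olig1 and Olig2 hardly at all. These are descriptions over 7 libraries that share the myelin sum as a divisor, with no test.

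**Figure D3:**
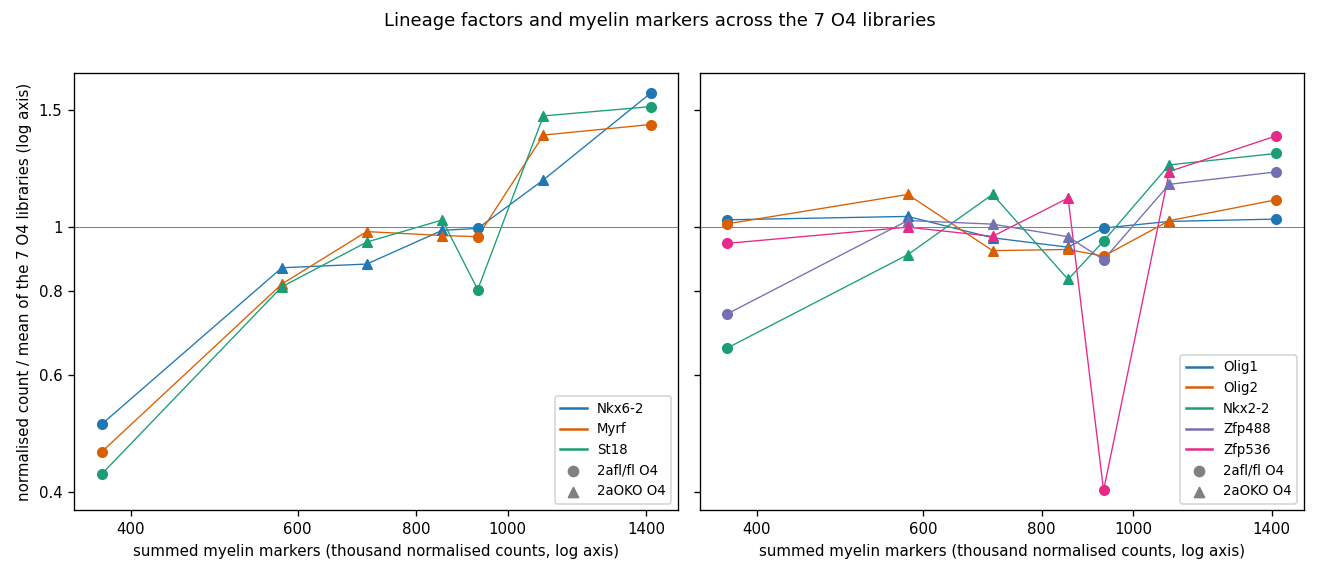
Each point is 1 of the 7 O4 libraries (circles 2afl/fl, triangles 2aOKO), with the sum of 14 myelin markers on a log horizontal axis (normalised counts, scaled as its label says) and the normalised count of a gene, divided by its mean over the 7 libraries, on a log vertical axis. Nkx6-2, Myrf and St18 (left) climb with the myelin sum, Olig1 and Olig2 (right) stay near 1, and Zfp536 drops in 1 control library.

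For each of the 8 members with a mean of at least 50, the genes with the most similar profile were found by the root mean square difference of log2(value + 1) over the 14 libraries, after each gene's mean was subtracted, among 13697 genes. The nearest to Myrf were Cnp (0.123), Nfasc (0.148) and Sema4d (0.181), of which the first encodes a myelin enzyme and the second an adhesion protein of the paranode. Nearest to Nkx6-2 were Mbp (0.615), Epcam (0.668) and Mog (0.806), and the 3 nearest to St18 included Cdk18 (0.853) and Cldn14 (0.989). St18 was at place 17 for Nkx6-2, and Nkx6-2 at place 7 for St18. For Olig1 the nearest were Rtn2 (0.0523), Ap3b2 (0.0720) and Rcn1 (0.0721), with Olig2 at place 33 (0.0908). For Olig2 they were Tril (0.0674), Adgrb1 (0.0767) and Lrrn1 (0.0774), with Olig1 at place 20. Nkx2-2 was nearest to Slc1a1 (0.0976), Rtkn (0.0981) and Zadh2 (0.0998), Zfp488 to Tbc1d16 (0.0585), Sash1 (0.0633) and Ehd3 (0.0677), and Zfp536 to Tmem245 (0.157), 2610005L07Rik (0.164) and Megf9 (0.172). The measure describes these libraries and is smaller for genes that vary little.

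The genotypes were compared within each sort, to see whether the lineage factors differ when Mfsd2a is floxed and Cre is present. None of the 9 members passed in the OPC sort, and 0% of all genes passed (limma, adjusted p under 0.05). Mfsd2a itself did not pass in either sort, so the lack of a call does not show the lack of a difference. At an unadjusted p under 0.05, 1 of the 9 members and 251 of the 15565 genes (1.61%) lay below the threshold. That member was Nkx6-1. In OPC libraries it was at 41.6, 20.9 and 28.5 in 2afl/fl against 13.3, 9.27, 17.0 and 14.5 in 2aOKO, from an estimated 23 to 44 and 12 to 19 reads per library. Every 2aOKO library was below every control library, and the 2aOKO mean was 44.5% of the control mean. Ranges that did not overlap in this direction were found for 2.87% of all genes, and in either direction for 4.75%. The log2 difference was -1.09 ± 0.49 (95% interval -2.14 to -0.04), with an unadjusted p = 0.0435 and an adjusted p of 0.9999 (limma, n = 4 against 3). Leaving out 1 library at a time gave -1.32 to -0.84. Nkx6-1 is a gene that the study named on these same libraries, so its direction here is not independent evidence.

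The other 8 members were close between genotypes in OPC libraries or too low to say. The log2 difference, 2aOKO minus 2afl/fl, was 0.05 ± 0.11 for Olig1 (95% interval -0.18 to 0.28), -0.05 ± 0.12 for Olig2 (-0.29 to 0.20) and -0.02 ± 0.18 for Nkx2-2 (-0.41 to 0.37). For Zfp488 the interval was -0.26 to 0.26, for Myrf -0.61 to 0.55 and for Zfp536 -0.55 to 0.65. Nkx6-2 and St18, at a handful of reads in this sort, had the widest intervals, -1.65 to 0.71 and -1.04 to 2.56. A difference of 2-fold is thus outside the intervals of Olig1, Olig2, Nkx2-2, Zfp488, Myrf and Zfp536 and inside those of Nkx6-2 and St18. These intervals share their estimate of spread with the O4 libraries, so they do not measure the OPC spread alone. In 2afl/fl the SD of Myrf was 18.9% of its mean in OPC and 50.8% in O4 libraries. For Zfp536 it was 18.4% and 53.6%.

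In the O4 sort none of the 9 members passed, at an adjusted or at an unadjusted threshold, and 0% of all genes passed after adjustment, with 450 (2.89%) at an unadjusted p under 0.05. No member had groups that did not overlap, against 2.67% of all genes. The largest log2 differences among members were those of Nkx6-1, -0.41 ± 0.49 (95% interval -1.46 to 0.64), and Zfp536, 0.41 ± 0.28 (-0.19 to 1.005), and the latter was -0.09 without library 1 of 2afl/fl O4. Myrf differed by 0.25 ± 0.27 (-0.34 to 0.83), St18 by 0.37 ± 0.84 (-1.43 to 2.17), Nkx2-2 by 0.12 ± 0.18 (-0.27 to 0.51) and Zfp488 by 0.16 ± 0.12 (-0.10 to 0.42). Nkx6-2 differed by 0.07 ± 0.55 (-1.11 to 1.24). A difference of 2-fold is inside the intervals of Nkx6-1, Nkx6-2, St18 and, just, Zfp536, and outside those of the other members. Olig1 and Olig2 were within 0.05 of no difference, with intervals of -0.27 to 0.19 and -0.26 to 0.24. All of these intervals share their estimate of spread with the OPC libraries. There the SD of St18 was 99.6% of its low mean in 2afl/fl and 104% in 2aOKO. Within the controls Myrf, Nkx6-2 and St18 spanned 3.10-fold to 3.56-fold between libraries 2 and 3 of 2afl/fl O4, and every 2aOKO library lay between them.

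**Figure D4:**
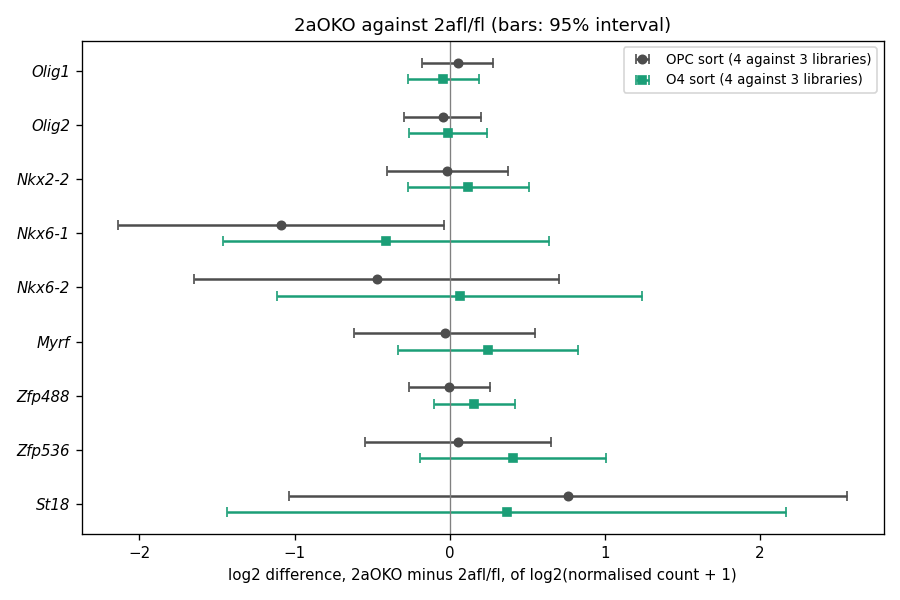
The horizontal axis is the log2 difference, 2aOKO minus 2afl/fl, of log2(normalised count + 1), with points for the 9 genes in the OPC sort (grey circles) and the O4 sort (green squares), 4 against 3 libraries each, and bars for the 95% interval of the limma fit. All intervals cross 0 except that of Nkx6-1 in OPC libraries, which ends at -0.04.

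Whether the genotype difference depended on the sort was tested as the difference between the O4 and OPC effects. No member and 0% of all genes passed, with no member and 132 genes (0.848%) at an unadjusted p under 0.05. For Nkx6-1 the difference of effects was 0.68 ± 0.70 (95% interval -0.81 to 2.16), so the OPC and O4 values of this gene are not shown to differ in their response. For Zfp536 it was 0.35 ± 0.40 (-0.49 to 1.20) and for Myrf 0.28 ± 0.39 (-0.54 to 1.10). In the lists read beside the members, no paralog, no other regulator and no MYRF target passed between genotypes in either sort. The smallest unadjusted p among the 40 other regulators belonged to Id2, an inhibitor of basic helix-loop-helix factors, in OPC libraries (-0.32 ± 0.13, unadjusted p = 0.0281, limma) and to Nfia, a nuclear factor I protein, in O4 libraries (-0.26 ± 0.09, unadjusted p = 0.0141). The study had named Id2 as lower in 2aOKO OPCs on these same libraries, so its direction here is not independent evidence. Of the MYRF list, 10 of 14 members lay below 0 in O4 libraries, with a median of -0.09 and none at an unadjusted p under 0.05. The median of all genes tested was -0.002. The summed level of the list spread from 415235 to 1562689 within the 2afl/fl O4 libraries, and its 14 genes are not taken as separate observations.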

How the data were processed

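RNA-seq of 14 mouse brain libraries was used, with groups and replicate numbers from the labels. According to the study's methods and the submitters' processing notes, libraries were made with a NEBNext Ultra kit from 900 ng of total RNA, and STAR 2.7.8a placed the paired-end reads on mm39. Partek Flow 10 made RefSeq gene counts and scaled them. As deposited, the signal in each cell is such a count over its library's median-ratio size factor. Low values were not all whole multiples of 1 read (92.8% to 94.9% within 0.05), so no count model was used. The authors' deposited tables of 3 comparisons, made with DESeq2, hold group means, ratios, fold changes, p-values and false discovery rates, and were not used.

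Values were transformed as log2(value + 1), and limma 3.58.1 (R 4.3.3) fitted 1 mean per group with an intensity trend to the 15565 genes with a mean of at least 10, leaving out 2790. In this main fit the spread of a gene was estimated over all 14 libraries and shared by every comparison. P-values are two-sided, were adjusted by the Benjamini-Hochberg method across those genes, and their code was tested on simulated data. The study gives its sample numbers as animals, and the OPC and O4 libraries of 1 number may share them. Reads were estimated by dividing by the value of 1 read, and such counts carry counting error only. Coordinates are those of the authors' file in mm39, whose last column is 1 past the end. Promoters are RefSeq's in GRCm38.p6 and were not placed on mm39.

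The members and lists were chosen with earlier results of these data known. Named were all 9 members, Mfsd2a, up to 6 genes per list by the smallest p in the 2afl/fl sort comparison and up to 3 in each genotype comparison, up to 4 per marker list, and the 3 nearest profiles of each member with a mean of at least 50. Id2 and Nfia are named as the smallest p of their list. Some genes that this rule would name are not reported here.

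Replicate numbers were checked as pairs by the correlation of deviations from group means. OPC and O4 libraries of 1 number and genotype correlated at 0.160 to 0.328 in all 7 pairs, each best with its own number. The main fit held no term for these pairs and treated the 14 libraries as independent. They were paired only in the alternative fits with a block. Between genotypes 2 of 6 pairs lay under 0.1, while the pairs numbered 3 reached 0.240 in OPC and 0.299 in O4 libraries. Each 2afl/fl library correlated best with the 2aOKO library of its number, except library 2 of 2afl/fl O4, which matched library 4 best. Numbers were joined between genotypes only in the block over all libraries. Alternatives were a pseudocount of 5, no filter, scaling to equal totals, no trend, blocks, the compared groups alone, leaving out each library, and leaving out the 4 libraries numbered 3. The block within each genotype was added after the data were seen.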

Additional observations from a re-analysis of the deposited data

How the results depend on the processing

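Of the member differences refitted, 642 kept direction and side of the threshold, and 9 gained and 9 lost a call. Another 51, of which 49 were between genotypes or in the difference of effects and none was called, changed sign. Leaving out 1 library gave 2473 to 5880 genes called between sorts in 2afl/fl (4128 with all; 2473 without library 1 and 2716 without library 3 of 2afl/fl O4), 3821 to 4980 in 2aOKO (5145), 0 in OPC genotypes and 0 to 4 in O4 genotypes (4 without library 3 of 2afl/fl O4). The 2 compared groups alone gave 848 in 2afl/fl, and fits without the 4 libraries numbered 3 gave 1272 and 3334 in the sort comparisons. The members called were 4 of 9 in 2afl/fl and 8 of 9 in 2aOKO with the 2 groups alone, and ranged from 5 to 6 and from 6 to 7 when 1 library was left out. Scaling to equal totals moved the median of all genes to -0.12 and -0.13 and the split of higher and lower calls from 2223 and 1905 to 1574 and 2972 in 2afl/fl, and from 2738 and 2407 to 1886 and 3707 in 2aOKO. Olig2 was then called (-0.41 and -0.38, adjusted p = 0.0127 and 0.00654, limma), which is -0.29 and -0.25 relative to that median. Olig1 in 2afl/fl lost its call with a pseudocount of 5 (adjusted p = 0.0518), no filter (0.0657), the 2 groups alone (0.281) and without the libraries numbered 3 (0.189), within a range of 0.00523 to 0.281. Olig2 in 2aOKO was also called in the 2 groups alone (0.0177) and without library 4 of 2aOKO O4 (0.0449), and Zfp536 in 2aOKO was called in the 2 groups alone (0.0410).

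With the replicate number as a block over all libraries, 5048 and 6000 genes were called between sorts and 0 between genotypes, and with the block within each genotype 5237 and 6142. Apart from Olig2, no member's call changed with either block. Between genotypes the block turned Nkx2-2 (0.020) and Myrf (0.0076) in OPC and Nkx6-2 (-0.0019) in O4 libraries. The cause of these changes of sign was not tested. Without the libraries numbered 3 the OPC genotype difference turned for Olig2 (0.086), Nkx2-2 (0.079), Nkx6-2 (0.062), Myrf (0.0996) and Zfp488 (0.055), the O4 one for Olig2 (0.042) and Nkx6-1 (0.10), and the difference of effects for Olig2 (-0.044) and St18 (0.030, and 0.076 with a pseudocount of 5). Equal totals turned Zfp488 in OPC libraries (0.00022). Leaving out 1 library moved Zfp536 between sorts in 2afl/fl from -0.48 to 0.41. In OPC genotypes it moved Olig1 from -0.030 to 0.18, Olig2 from -0.12 to 0.091, Nkx2-2 from -0.085 to 0.11, Nkx6-2 from -0.85 to 0.28, Myrf from -0.15 to 0.11, Zfp488 from -0.036 to 0.040, Zfp536 from -0.044 to 0.20 and St18 from -0.57 to 1.66. In O4 genotypes it moved Olig2 from -0.085 to 0.056, Nkx2-2 from -0.13 to 0.35, Nkx6-1 from -0.72 to 0.015, Nkx6-2 from -0.37 to 0.45, Myrf from -0.20 to 0.61, Zfp488 from -0.0031 to 0.35, Zfp536 from -0.093 to 0.79 and St18 from -0.090 to 0.83. The difference of effects moved for Olig2 from -0.10 to 0.11, Nkx2-2 from -0.11 to 0.37, Nkx6-2 from -0.22 to 0.92, Myrf from -0.17 to 0.64, Zfp488 from -0.0018 to 0.35, Zfp536 from -0.15 to 0.74 and St18 from -1.29 to 0.93.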
